A study of Mus musculus with 9 samples.

Results

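The translation initiation and elongation factors of the mouse transcriptome were examined in RF8 embryonic stem (ES) cells. They were taken by name, as every row of the authors' gene table whose symbol begins with Eif1 to Eif6 or with Eef1 or Eef2, leaving out names that hold -ps, the mark of a pseudogene. The rule uses no measured value and gave 65 genes of the 33495 listed. They fall into 19 role groups, the largest being the 13 subunits of eIF3. Of the 65, 62 passed the filter on low counts and were tested, the filter being 1 CPM or more in 3 or more libraries, where CPM is the count scaled to a common library size. Eef1a2, Eif4e1b and Eif5al3 did not pass.

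Some rows carry older or ambiguous names. Eif2c1 to Eif2c4 are the Argonaute genes, whose proteins bind small RNAs and are not translation factors. They have a paragraph of their own below, but every count, share and median of the members includes them. The row named Eif1ay lies on the X chromosome and has Eif1ax as its alternate name in the table. It is called Eif1ay here as the table does. The row named Eif5al3 has an alternate name that ends in -ps.

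Protein synthesis begins when eIF2, loaded with GTP and the initiator tRNA, joins the small ribosomal subunit with eIF1, eIF1A, eIF3 and eIF5. The eIF4F complex, made of the cap-binding protein eIF4E, the scaffold eIF4G and the helicase eIF4A, brings that subunit to the capped end of an mRNA. eIF5B then joins the large subunit, eEF1A delivers each aminoacyl-tRNA, eEF2 moves the ribosome along, and eIF5A relieves stalls. Undifferentiated ES cells are known for a low rate of protein synthesis that increases as they differentiate.

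The cells had been transfected with Nanog carrying the L122A change (L122A), with wild-type Nanog (WT), or with enhanced green fluorescent protein (EGFP) as the control. Nanog is a homeodomain transcription factor of pluripotency. Each transfectant was grown with 5 µM retinoic acid (RA) and no LIF, without LIF, or with 1000 units of LIF per ml, the cytokine that keeps mouse ES cells undifferentiated. The routine culture of all transfectants was KO-DMEM with 15% FCS, LIF and 2 µg puromycin. The 3 transfectants in 3 cultures gave 9 libraries, 1 for each combination and so none replicated. Neither the time in each culture nor whether a transfectant is 1 clone is stated in the labels. The p-values below therefore rest on whether an effect of culture repeats over the 3 transfectants, or an effect of transfectant over the 3 cultures, and not on replicate cultures.

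The libraries held 24166395 to 28714988 counts. Ribosomal RNA took 15.0% to 23.1% of them and is part of every share of counts and of the total-count scale below. The ES cell marker list (8 genes, all 8 detected in every library) summed to 820, 309 and 16.6 CPM in the RA cultures of L122A, WT and EGFP, against 2154 to 5484 CPM in the 6 other libraries. This list holds Nanog, the transfected gene, which had 258, 195 and 0.870 CPM with RA in L122A, WT and EGFP, and the counts do not tell its transgene from the cells' own copy. The 7 markers other than Nanog summed to 561, 114 and 15.7 CPM with RA, against 1864 to 5261 CPM in the other libraries. Esrrb did not follow this sum in L122A, with 138 CPM with RA, against 114 CPM without LIF and 187 CPM with LIF. Sox2 and Zfp42 in L122A with RA, at 24.1 and 149 CPM, lay above EGFP without LIF, at 19.8 and 59.2 CPM. The 7 extraembryonic endoderm markers summed to 110 to 359 CPM in the RA cultures and to 6.18 to 45.0 CPM elsewhere, where up to 2 of them were at 0. In EGFP, Lama1 had 20.5 CPM with RA against 24.0 CPM with LIF. Foxa2 in EGFP had 1.24 CPM with RA against 2.21 CPM without LIF. The sum of the fibroblast list stood apart in EGFP with RA, at 393 CPM against 6.69 to 46.1 CPM in the other libraries. So did that of the neural list, at 207 CPM against 27.1 to 85.3 CPM. Nes gave 186 CPM of this neural sum, while Pax6, Tubb3 and Sox1, at 6.25, 15.0 and 0 CPM, were not highest there. In the fibroblast list Thy1, at 1.96 CPM, and Lum, at 0, were not highest there either. In bulk RNA, fewer cells of a type and less RNA per cell cannot be told apart, and the part of cell composition in the results below was not tested.

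With RA, the translation factors together took a smaller share of all counts, while single members moved both ways. The 65 members took 2.36%, 2.31% and 2.16% of all counts in the RA cultures of L122A, WT and EGFP, against 2.87%, 3.17% and 3.12% without LIF and 2.83%, 2.84% and 2.94% with LIF. The 3 RA libraries lay below the 6 others. Eef1a1 alone accounted for 0.661%, 0.706% and 0.563% of counts with RA and for 0.771% to 1.05% in the other libraries. The ribosomal proteins, which are not members, took 6.81% to 7.61% of counts with RA and 12.7% to 15.4% elsewhere.

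Between RA and LIF, 31 of the 62 tested members fell and 8 rose at an adjusted p below 0.05 (edgeR's quasi-likelihood test, additive in transfectant and culture, with Benjamini-Hochberg adjustment over all 13996 tested genes). Among all tested genes 23.8% fell and 24.4% rose, against 50.0% and 12.9% of the tested members. Of the 8 rises 3 were those of Argonaute genes, which are not translation factors. The median log2 fold change was -0.52 over the tested members and 0.01 over all tested genes. In 34 members every RA library lay below every LIF library, and in 13 every RA library lay above, where 29.3% and 29.8% of all tested genes did so. All values are on a scale of CPM corrected by trimmed-mean (TMM) factors, which holds the middle of the gene distribution level between libraries.

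The split between higher and lower depended on that scaling. The distance from the other genes could not, since a change of scaling moves all genes of a library together. On total counts alone the median of all tested genes moved to 0.39, 21 members fell and 14 rose, and the member median was -0.15. Of all 13996 tested genes, 6448 were called in either direction on that scale. Their shares by direction are not given. The distance between the 2 medians was -0.53 with either scaling, which was fixed in advance and is no check of the result. No member called on the TMM scale changed sign on total counts. The 10 members whose fall was called with TMM alone were Eif1, Eif1ad, Eif2b1, Eif2b2, Eif2b3, Eif4a3, Eif4e, Eif4e2, Eif5 and Eif6, and the 6 whose rise was called with total counts alone were Eef2, Eif2ak4, Eif2c1, Eif3a, Eif4e3 and Eif4enif1. Without EGFP with RA, where the sums of the fibroblast and neural lists were highest, 30 members fell and 9 rose. Leaving out the WT library with RA lowered the calls to 25, with 22 lower and 3 higher. Of the 39 calls 22 lower and 2 higher ones held with any 1 library left out. Calls over all tested genes moved too, from 6749 with all libraries to 5728 without EGFP with LIF. For the fits without an RA library they are not given, so the lower member counts cannot be read as particular to the members.

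**Figure D1:**
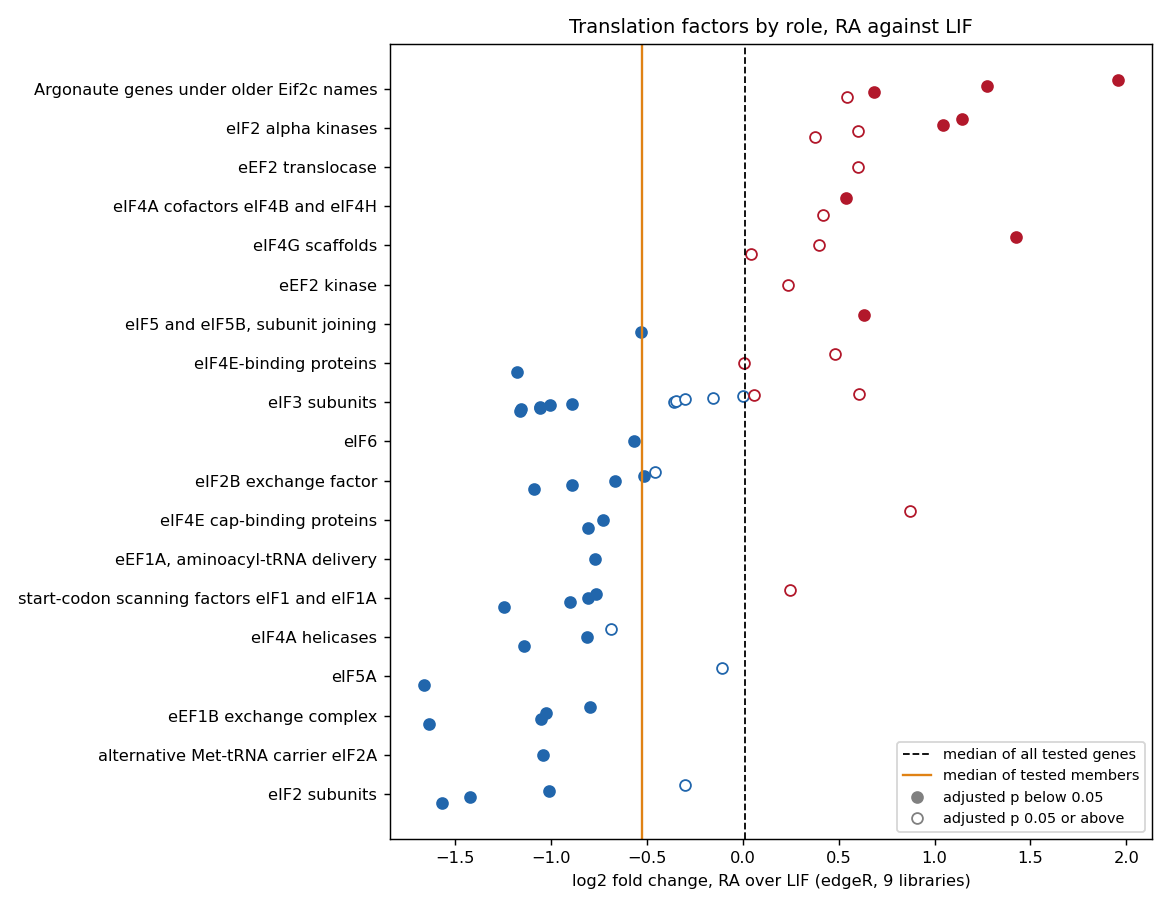
Log2 fold change of RA over LIF for the 62 tested members, 1 point each, in rows by role and ordered by the median of the role. Filled points passed an adjusted p of 0.05 and open points did not, red points are above 0 and blue points below, the dashed line is the median of all tested genes (0.01) and the orange line that of the tested members (-0.52). The eIF2 subunits, the eEF1B complex, eIF5A and the eIF4A helicases lie at the lower end, and the Argonaute genes and eIF2 alpha kinases at the upper end.

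The subunits of eIF2, which carries the initiator tRNA to the ribosome, were among the members that fell most. Eif2s2, the beta subunit (chromosome 2, 154697146 to 154718671 in mm9, minus strand), had 492, 331 and 380 CPM with RA in L122A, WT and EGFP, against 1183, 880 and 1018 CPM without LIF and 1051, 1375 and 1091 CPM with LIF. All 3 RA libraries lay far below the 6 others. Its log2 fold change of RA over LIF was -1.57 ± 0.21 (SE; adjusted p = 0.000875, edgeR), a fall of 2.97-fold.

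Eif2s1 encodes the alpha subunit, the target of the eIF2 kinases. It had 206, 181 and 268 CPM with RA in L122A, WT and EGFP, against 543, 751 and 463 CPM with LIF, and fell by 1.43 ± 0.26 on the log2 scale (edgeR adjusted p = 0.00313). The gamma subunit is encoded on both sex chromosomes. The X-linked copy, Eif2s3x, had 203, 184 and 204 CPM with RA, against 383, 399 and 408 CPM with LIF, and fell by 1.01 ± 0.16 (adjusted p = 0.00161). The Y-linked copy, Eif2s3y, had 64.5, 89.7 and 90.0 CPM with RA and 88.7, 113 and 98.2 CPM with LIF, groups that overlap, and did not pass the test (log2 -0.30 ± 0.18, adjusted p = 0.191). On total counts its log2 value was 0.07.

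Short windows at the annotated starts of these copies are given because a run of pyrimidines at the start of an mRNA is a feature of many messages of the translation machinery. Both windows run from 15 bases before the start to 15 bases from it, in RefSeq's annotation of GRCm38.p6, and capitals mark a C followed by at least 4 more C or T that begins within 3 bases of the start. The first lies at chrX:94212637-94212666 on the minus strand and the second at chrY:1010580-1010609 on the plus strand.
Eif2s3x: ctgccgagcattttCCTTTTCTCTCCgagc
Eif2s3y: gcggaggccacagccaCTTCCTTCTTTCgt

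Both copies held such a run. Eif2s3x passed the test for a fall and Eif2s3y did not, and the difference between them was not tested. Of the 51 members with a promoter in the RefSeq table, 11 held one, which is 21.6%, against 13.5% of all 27025 genes in that table. The run was present in 4 of the 22 matched members that fell with RA, in 1 of 7 that rose and in 6 of 21 that were not called.

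eIF2B, the exchange factor that reloads eIF2 with GTP, moved the same way in most of its subunits. Of its 5 subunits 4 fell and none rose. Eif2b5, the catalytic epsilon subunit, had 53.1, 43.8 and 36.9 CPM with RA in L122A, WT and EGFP, against 96.7, 95.1 and 90.7 CPM with LIF, and fell by 1.09 ± 0.17 on the log2 scale (edgeR adjusted p = 0.00161). Eif2b3 encodes the gamma subunit. It fell by 0.89 ± 0.22, which was not called without the WT library with RA (adjusted p = 0.0747). Eif2b1 and Eif2b2 fell by 0.67 and 0.51. Eif2b1 lost its call without the L122A library with LIF or the WT library with RA (adjusted p 0.0698 and 0.0756), and Eif2b2 without any library of these cultures other than EGFP with LIF (0.0723 to 0.130). Eif2b4 did not pass (log2 -0.46, adjusted p = 0.0932). Eif2a, an alternative carrier of initiator tRNA, fell by 1.05 ± 0.19 (adjusted p = 0.00307), with 155, 181 and 155 CPM with RA against 318, 398 and 300 CPM with LIF.

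Of the 4 kinases that phosphorylate eIF2 alpha and so lower initiation, 2 rose and none fell. Eif2ak2, the kinase activated by double-stranded RNA (chromosome 17, 79251904 to 79277613 in mm9, minus strand), had 31.5, 42.3 and 59.3 CPM with RA in L122A, WT and EGFP, against 20.1, 13.3 and 26.9 CPM without LIF and 17.8, 20.0 and 20.7 CPM with LIF. The RA libraries were the 3 highest, and EGFP with RA the highest of all. Eif2ak2 rose by 1.14 ± 0.25 on the log2 scale (edgeR adjusted p = 0.00635), a call that held with any 1 library left out.

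Eif2ak3 encodes the kinase of endoplasmic reticulum stress, known as PERK. It had 19.4, 16.0 and 12.4 CPM with RA and 8.21, 5.36 and 9.23 CPM with LIF, and rose by 1.04 ± 0.35 (adjusted p = 0.0354). This call was lost without any of the WT or L122A libraries of these cultures (adjusted p 0.0937 to 0.145). Eif2ak1, the heme-regulated kinase, and Eif2ak4, the kinase of amino acid shortage, did not pass, with log2 values of 0.38 ± 0.23 and 0.60 ± 0.24 and adjusted p of 0.209 and 0.0642. Eif2ak1 overlaps Aimp2 on the other strand. The table does not state how strand was counted, and Aimp2 holds more counts (19783 against 8480 over the 9 libraries). The overlap is one of whole gene spans, introns included, so whether any counted reads were shared is not known.

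Among the factors that scan for the start codon, 4 of 5 fell. The row named Eif1ay had 158, 227 and 188 CPM with RA in L122A, WT and EGFP, against 644, 645 and 462 CPM without LIF and 443, 665 and 305 CPM with LIF. All RA libraries were lower than the 6 others, and it fell by 1.25 ± 0.22 on the log2 scale against LIF (edgeR adjusted p = 0.00271). Eif1a, its near-identical relative on chromosome 18, had 207, 159 and 273 CPM with RA and 379, 421 and 362 CPM with LIF, and fell by 0.90 ± 0.21 (adjusted p = 0.00833). That call was lost without the WT library with RA (adjusted p = 0.0612). Reads shared by such close copies could have been split between them by the counting.

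Eif1, which guards the choice of start codon, and Eif1ad, named for its eIF1A-like domain, fell by 0.81 and 0.77. Eif1b, a close relative of Eif1, had 31.8, 48.2 and 40.3 CPM with RA and 40.7, 33.0 and 27.6 CPM with LIF and did not pass (log2 0.25, adjusted p = 0.397).

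The 13 subunits of eIF3, the large scaffold of the small ribosomal subunit in initiation, split into subunits that fell and subunits that did not pass. With RA 6 of the 13 fell and none rose. The 6 were Eif3e, Eif3i, Eif3m, Eif3d, Eif3h and Eif3k, with log2 fold changes from -1.16 to -0.89. Eif3e had 259, 261 and 310 CPM with RA in L122A, WT and EGFP, against 577, 642 and 632 CPM with LIF, and fell by 1.16 ± 0.18 (edgeR adjusted p = 0.00168). Eif3i had 229, 232 and 236 CPM with RA, against 521, 659 and 399 CPM with LIF, and fell by 1.16 ± 0.20 (adjusted p = 0.00265). Eif3h lost its call without either WT library (adjusted p 0.0505 without WT with LIF and 0.0529 without WT with RA). Eif3d, the subunit known to bind the cap of selected mRNAs, had 140, 124 and 134 CPM with RA and 269, 287 and 270 CPM with LIF.

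The other subunits stayed nearer to the median of all genes. Eif3a, the largest subunit and a core of the complex, had 494, 482 and 506 CPM with RA, against 259, 480 and 348 CPM without LIF and 263, 279 and 456 CPM with LIF. Each RA library was higher than each LIF library, but the change did not pass (log2 0.61 ± 0.25, edgeR adjusted p = 0.0737). On total counts it did, at 0.98 and an adjusted p of 0.0332. Eif3c, Eif3f and Eif3b, further core subunits, had log2 values of 0.06, -0.00 and -0.15, and Eif3g, Eif3l and Eif3j had -0.36, -0.35 and -0.30, with adjusted p of 0.0866 or more. On total counts Eif3b, Eif3g, Eif3l and Eif3j were at 0.22, 0.02, 0.03 and 0.08, on the other side of 0. Eif3j overlaps Spg11 on the other strand.

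Within each transfectant the subunits also differed. Eif3h with RA was 0.398 of its level with LIF in L122A (95% interval 0.388 to 0.408), 0.402 in WT (0.392 to 0.411) and 0.766 in EGFP (0.748 to 0.783). These exact Poisson intervals cover counting error only. Eif3a with RA was 1.88 of its LIF level in L122A (1.82 to 1.94), 1.73 in WT (1.68 to 1.78) and 1.11 in EGFP (1.09 to 1.14). The EGFP ratio of Eif3a and of Eif3h was nearer to 1 than those of both Nanog transfectants. The difference of the RA response between the Nanog transfectants and EGFP did not pass for Eif3h (log2 -0.94 ± 0.39, edgeR adjusted p = 0.433).

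**Figure D2:**
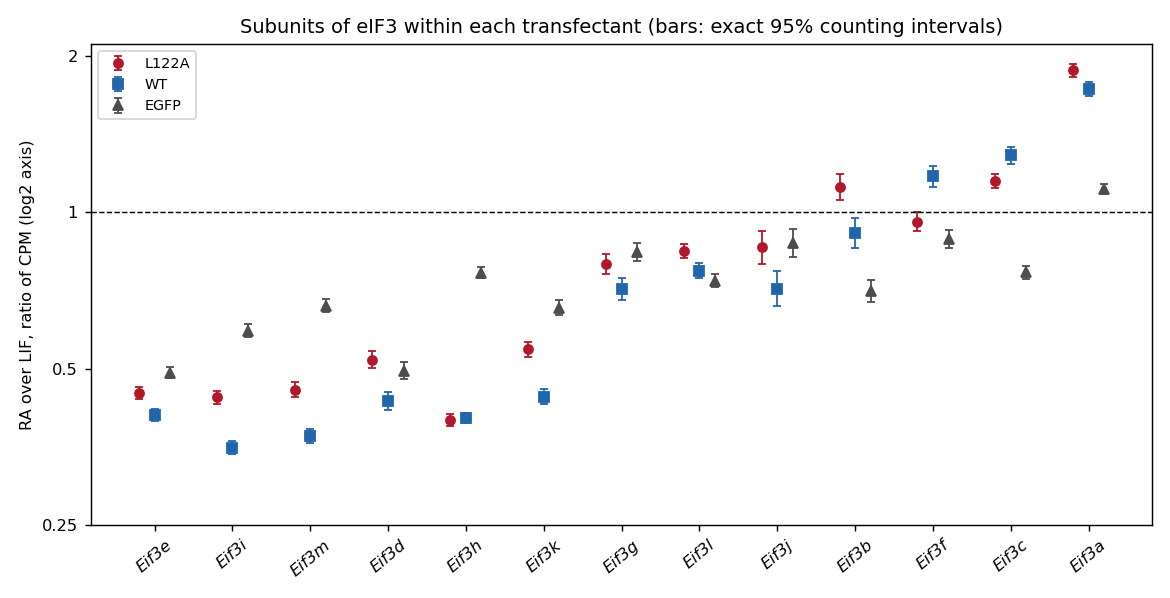
Ratio of CPM with RA over CPM with LIF for the 13 eIF3 subunits within each transfectant, on a log2 axis, with exact 95% counting intervals from the 2 libraries behind each point and subunits ordered by their fitted change. Circles are L122A, squares WT and triangles EGFP. From Eif3e to Eif3k every ratio is below 1, and Eif3a is above 1 in all 3 transfectants.

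eIF4A, the helicase that unwinds mRNA ahead of the small subunit, has 2 close cytoplasmic forms. Over all libraries Eif4a1 passed the test and Eif4a2 did not, and the difference between them was not tested. Eif4a1 (chromosome 11, 69480438 to 69485925 in mm9, minus strand) had 1121, 752 and 836 CPM with RA in L122A, WT and EGFP, against 2147, 2389 and 1700 CPM without LIF and 1889, 2043 and 1999 CPM with LIF. It fell by 1.14 ± 0.20 on the log2 scale (edgeR adjusted p = 0.00231). Eif4a2 had 564, 678 and 727 CPM with RA, against 1705, 1217 and 661 CPM without LIF and 1221, 1543 and 673 CPM with LIF.

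In EGFP, Eif4a2 was thus at a similar level in all cultures, while in both Nanog transfectants it was about as low with RA as in EGFP and higher in the other cultures. It did not pass over all libraries (log2 -0.69 ± 0.32, edgeR adjusted p = 0.108), but without the EGFP library with RA it did (-1.15, adjusted p = 0.0041). Its RA over LIF ratio was 0.462 in L122A (0.454 to 0.471), 0.439 in WT (0.432 to 0.447) and 1.08 in EGFP (1.06 to 1.10). The difference of these responses, Nanog transfectants minus EGFP, was -1.27 ± 0.41 on the log2 scale with an unadjusted p of 0.0128, and did not pass adjustment (adjusted p = 0.348). Eif4a3, the helicase of the exon junction complex, had 206, 206 and 220 CPM with RA and 358, 389 and 362 CPM with LIF, and fell by 0.81 ± 0.16 (adjusted p = 0.00378), which on total counts was not called (adjusted p = 0.0558).

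Of the 3 tested cap-binding proteins 2 fell and none rose, and of the 3 eIF4G scaffolds 1 rose and none fell. Eif4e, the cap-binding protein, had 184, 187 and 241 CPM with RA in L122A, WT and EGFP, against 333, 395 and 289 CPM with LIF, and fell by 0.73 ± 0.20 on the log2 scale (edgeR adjusted p = 0.0173). The call was lost without any of the WT or L122A libraries of these cultures (adjusted p 0.0527 to 0.102). Eif4e2, a cap-binding relative that represses translation, fell by 0.81 ± 0.21 (adjusted p = 0.0124), not called without the WT library with LIF or the WT or L122A library with RA (adjusted p 0.0530 to 0.0674). Eif4e3 had 5.02, 8.66 and 9.08 CPM with RA and 4.29, 4.77 and 2.88 CPM with LIF, and did not pass (log2 0.87, adjusted p = 0.0694). It shares its strand with the overlapping gene Foxp1, which held 19624 counts against 1687, so its values are uncertain.

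Eif4g3 encodes a form of the eIF4G scaffold (chromosome 4, 137548937 to 137764423 in mm9, plus strand). It had 87.1, 62.1 and 57.7 CPM with RA, against 29.2, 32.4 and 40.6 CPM without LIF and 34.3, 12.3 and 35.4 CPM with LIF. The RA libraries were the 3 highest and WT with LIF the lowest. It rose by 1.42 ± 0.34 (edgeR adjusted p = 0.00898), a call that held with any 1 library left out. Eif4g1, the main scaffold, and Eif4g2, a scaffold without the eIF4E site, did not pass, with log2 values of 0.40 ± 0.22 and 0.04 ± 0.15 and adjusted p of 0.163 and 0.831. Eif4g2 had 1546, 1567 and 1578 CPM with RA and 1422, 1430 and 1732 CPM with LIF, the highest level per length of the scaffolds.

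Of the proteins that bind eIF4E, Eif4ebp1 fell. This repressor, released from eIF4E when mTOR phosphorylates it, had 114, 83.6 and 120 CPM with RA in L122A, WT and EGFP, against 210, 230 and 220 CPM without LIF and 263, 212 and 242 CPM with LIF. The RA libraries were the 3 lowest, and the fall was 1.18 ± 0.18 on the log2 scale (edgeR adjusted p = 0.00156). Eif4ebp2, its relative, had 69.6, 51.6 and 59.6 CPM with RA and 65.4, 43.0 and 72.0 CPM with LIF, groups that overlap (log2 0.01 ± 0.29, adjusted p = 0.986). Eif4enif1, which carries eIF4E into the nucleus, was at 0.48 ± 0.20 (adjusted p = 0.078).

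Of the 2 cofactors of eIF4A, which help it unwind, 1 rose. Eif4h had 168, 156 and 180 CPM with RA and 111, 104 and 134 CPM with LIF, and rose by 0.54 ± 0.16 (edgeR adjusted p = 0.0227). It lost that call without any library of these cultures other than EGFP with RA (adjusted p 0.0549 to 0.0958). Eif4b did not pass (log2 0.42, adjusted p = 0.179).

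The factors of subunit joining split. Eif5, which makes eIF2 hydrolyse GTP, had 215, 176 and 215 CPM with RA and 286, 297 and 293 CPM with LIF, and fell by 0.53 ± 0.16 (edgeR adjusted p = 0.0268). Eif5b, the GTPase that joins the large subunit, had 228, 183 and 235 CPM with RA and 124, 113 and 186 CPM with LIF, groups that overlap, and rose by 0.63 ± 0.21 (adjusted p = 0.0337). Eif5 lost its call without any library of these cultures other than EGFP with RA (adjusted p 0.0596 to 0.169), and Eif5b without any of the WT or L122A libraries of these cultures (0.0736 to 0.148). Eif5b overlaps Rev1 on the other strand, with 7548 counts against its 41872. Eif6, which keeps the large subunit from joining early, had 67.3, 61.9 and 84.7 CPM with RA and 111, 87.3 and 117 CPM with LIF, and fell by 0.57 ± 0.17 (adjusted p = 0.022). This call was lost without the L122A library with LIF or any library with RA (0.0593 to 0.113).

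Eif5a showed the largest fall and the smallest p of the members. It encodes the factor that relieves stalled ribosomes and carries hypusine, a modified lysine. Eif5a (chromosome 11, 69730222 to 69735460 in mm9, minus strand) had 317, 243 and 318 CPM with RA in L122A, WT and EGFP, against 960, 817 and 970 CPM without LIF and 906, 977 and 873 CPM with LIF. No RA library came within 2-fold of any other library. It fell by 1.66 ± 0.17 on the log2 scale against LIF (edgeR adjusted p = 0.000405), and by 1.28 on total counts.

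Eif5a2, its tissue-restricted relative, had 15.8, 18.5 and 21.0 CPM with RA and 18.3, 22.5 and 18.6 CPM with LIF, groups that overlap, and did not pass (log2 -0.11 ± 0.20, adjusted p = 0.663). The enzymes that make hypusine fell as well, 2 of the 5 genes in a list of hypusine enzymes and eIF2 kinase inhibitors, where 1 rose. Among all tested genes 23.8% fell and 24.4% rose. Dhps, the first enzyme, had 24.6, 23.4 and 25.8 CPM with RA in L122A, WT and EGFP, against 53.0, 71.1 and 54.4 CPM with LIF, and fell by 1.27 ± 0.20 (edgeR adjusted p = 0.00169). Dohh, the second, had 8.30, 8.35 and 11.7 CPM with RA, against 20.3, 21.3 and 20.2 CPM with LIF, and fell by 1.13 ± 0.23 (adjusted p = 0.00456).

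**Figure D3:**
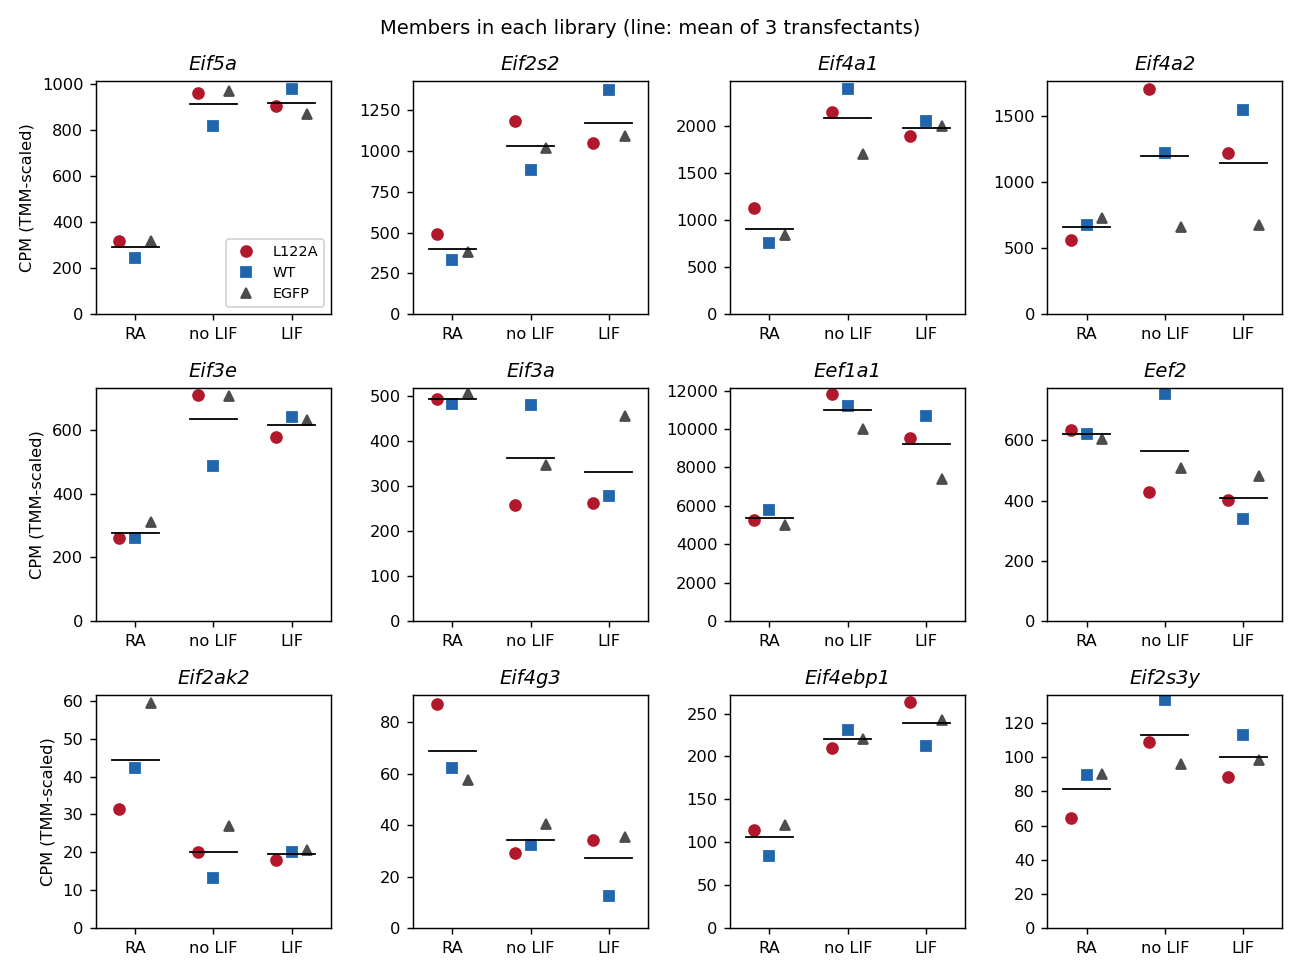
TMM-scaled CPM of 12 members in each of the 9 libraries, with the cultures RA, no LIF and LIF from left to right, 1 symbol per transfectant (circle L122A, square WT, triangle EGFP) and a line at the mean of the 3 transfectants. Eif5a, Eif2s2, Eif4a1, Eif3e, Eef1a1 and Eif4ebp1 are lower in every RA library than in every other library, Eif2ak2 and Eif4g3 are higher, and Eif4a2 with RA is near its EGFP level in the other cultures.

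Of the elongation factors, those of the eEF1 arm fell with RA. Eef1a1, which delivers aminoacyl-tRNA and had the highest level per length of all members (mean 3588 FPKM over the 9 libraries), had 5269, 5770 and 5028 CPM with RA in L122A, WT and EGFP, against 11805, 11202 and 10003 CPM without LIF and 9536, 10694 and 7396 CPM with LIF. It fell by 0.77 ± 0.15 on the log2 scale against LIF (edgeR adjusted p = 0.00359) and by 1.04 ± 0.15 against no LIF (adjusted p = 0.00134). Eef1a2, the form of muscle and neurons, was at or below 0.229 CPM in every library. The reads of processed copies of Eef1a1 could not be told from its own, since the counting of shared reads is not stated.

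All 4 members of the eEF1B exchange complex and its partners fell. Eef1e1, which joins the aminoacyl-tRNA synthetase complex, had 42.8, 39.6 and 64.4 CPM with RA in L122A, WT and EGFP, against 210, 164 and 118 CPM without LIF and 121, 197 and 142 CPM with LIF. It fell by 1.64 ± 0.31 (edgeR adjusted p = 0.00367). Eef1d, Eef1b2 and Eef1g, the delta, beta and gamma subunits of the exchange factor, fell by 1.05, 1.03 and 0.80.

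Eef2, the translocase, was not called. It had 635, 620 and 605 CPM with RA in L122A, WT and EGFP, against 430, 753 and 507 CPM without LIF and 403, 340 and 482 CPM with LIF. Each RA library was higher than each LIF library, but the change did not pass (log2 0.60 ± 0.23, edgeR adjusted p = 0.0617). It was called higher on total counts (0.97, adjusted p = 0.0266). Eef2k, the kinase that inactivates eEF2, was low in all libraries, between 0.114 and 4.28 CPM, and did not pass (log2 0.23 ± 0.93, adjusted p = 0.849).

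The Argonaute genes, kept in the set by their older names, were among the members that rose. Of the 4, 3 rose with RA and none fell. Eif2c2, the Argonaute that cuts its targets, had 24.6, 20.4 and 35.7 CPM with RA in L122A, WT and EGFP, against 6.68, 17.1 and 10.9 CPM without LIF and 10.1, 8.76 and 14.4 CPM with LIF, and rose by 1.28 ± 0.34 (edgeR adjusted p = 0.0157). Eif2c3 had 26.1, 26.1 and 29.0 CPM with RA and 17.8, 16.7 and 16.1 CPM with LIF, and rose by 0.69 ± 0.22 (adjusted p = 0.0325). Eif2c4, at 3.76 to 7.97 CPM with RA and 0.903 to 1.67 CPM with LIF, rose by 1.96 ± 0.54 (adjusted p = 0.0172) and is named for its position at the top of the changes although its mean is below 5 CPM. None of these calls held with each library left out: Eif2c2 needed the WT library with LIF and the L122A library with RA (adjusted p 0.0762 and 0.0625 without them), Eif2c3 each of the 6 libraries compared (0.0648 to 0.124), and Eif2c4 the EGFP and WT libraries with LIF and the WT library with RA (0.0574 to 0.109).

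The comparison of RA with no LIF uses the same RA libraries and so is not independent of the comparison with LIF. There 28 members fell and 8 rose, where 21.9% and 22.6% of all tested genes did. The medians were -0.46 over members and 0.02 over all tested genes, and on total counts -0.05 and 0.43, with 18 members lower and 12 higher. The shares of all tested genes by direction on total counts are not given. All 28 members that fell against no LIF had also fallen against LIF, and 7 of the 8 that rose had also risen, the exception being Eif4enif1 (0.58 ± 0.20, edgeR adjusted p = 0.0435; between 0.0528 and 0.186 without any of 7 libraries). With any 1 library left out 21 of the falls and 3 of the rises held. The deepest falls were those of Eef1e1 (-1.74), Eif5a (-1.65), Eif1ay (-1.60), Eif2s1 (-1.49) and Eif2s2 (-1.36).

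Withdrawal of LIF without RA gave no call among the members. Between no LIF and LIF 0 of 62 passed by edgeR and 0 by DESeq2, where 0.0714% of all tested genes passed by edgeR. The medians were 0.03 over members and 0.00 over all tested genes. At an unadjusted p below 0.05 there were 2 members, Eif4e3 (log2 1.12 ± 0.35) and Eif2c3 (-0.64 ± 0.22). Eif4e3 had 5.47, 10.6 and 11.2 CPM without LIF in L122A, WT and EGFP, against 4.29, 4.77 and 2.88 CPM with LIF, under the limit on its overlap given above.

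Between transfectants no member passed over all libraries. For WT against EGFP 0 of 62 members passed by edgeR and 0 by DESeq2, where 0.322% of all tested genes passed by edgeR, with 2 members at an unadjusted p below 0.05, Eif1ay (log2 0.62 ± 0.22) and Eif6 (-0.45 ± 0.17). For L122A against EGFP 0 passed by either tool, where 2.87% of all tested genes did by edgeR, with 1 member, Eif3j, at an unadjusted p below 0.05 (-0.39 ± 0.16). Without the EGFP library with RA, Eif4a2 was called higher in L122A than in EGFP (log2 1.04, edgeR adjusted p = 0.0403). For L122A against WT 0 members passed by either tool and 0 were at an unadjusted p below 0.05, and 0.0% of all tested genes passed by edgeR, while DESeq2 called 51 genes, none of them a member.

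Within single cultures a few members differed by 2-fold or more between libraries, with at least 5 CPM in the higher. With LIF, 2 members were higher and 1 lower in WT than in EGFP, where 3.72% and 3.69% of all tested genes were. Eif4a2 in WT was 2.29 of its EGFP level (2.25 to 2.34), and Eif1ay 2.18 (2.12 to 2.24). Eif4g3 in WT with LIF was 0.348 of its EGFP level (0.302 to 0.400). Without LIF, 1 member was higher and 1 lower in L122A than in EGFP, where 7.07% and 7.7% of all tested genes were. Eif4a2 in L122A was 2.58 of its EGFP level (2.53 to 2.63), and Eif4e3 0.489 (0.389 to 0.612). Also without LIF, Eif2ak2 in WT was 0.495 of its EGFP level (0.432 to 0.565), the 1 member lower where 5.91% of all tested genes were, and Eif2c2 in L122A was 0.391 of its WT level (0.319 to 0.476), the 1 member lower where 2.99% were. With RA, Eif2c4 in WT was 2.12 of its EGFP level (1.70 to 2.65), the 1 member higher where 3.22% were. With LIF, Eif4g3 in L122A was 2.79 of its WT level (2.41 to 3.23), the 1 member higher where 1.29% were. No other tested member met this limit in any of the 9 such pairs of libraries. These are ratios of unreplicated libraries.

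Each transfectant can also be read alone, without a test. At 2-fold or more, 14 members were lower and 3 higher with RA than with LIF in L122A, 23 lower and 5 higher in WT, and 11 lower and 3 higher in EGFP. The matching shares of all tested genes were 13.0% lower and 15.5% higher in L122A, 17.4% and 19.1% in WT, and 12.8% and 18.0% in EGFP. On total counts the split turned round in both Nanog transfectants, to 3 lower and 14 higher in L122A and 4 lower and 18 higher in WT, and was 6 lower and 3 higher in EGFP. The matching shares of all tested genes on total counts are not given. Over all libraries the all-gene median was 0.39 on that scale, so this turn cannot be read as particular to the members. Ribosomal RNA took 16.0%, 19.1% and 16.7% of counts with RA in L122A, WT and EGFP, against 20.6%, 23.1% and 15.9% with LIF. Its part in the contrast between the Nanog transfectants and EGFP was not tested. The member medians were -0.44, -0.62 and -0.40 on the log2 scale in L122A, WT and EGFP, and the medians of all tested genes lay between -0.01 and 0.00. For the RA response of the Nanog transfectants minus that of EGFP 0 members passed by edgeR, where 0.00714% of all tested genes did, and 3 members, Eif4a2, Eif3h and Eef2k, had an unadjusted p below 0.05.

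**Figure D4:**
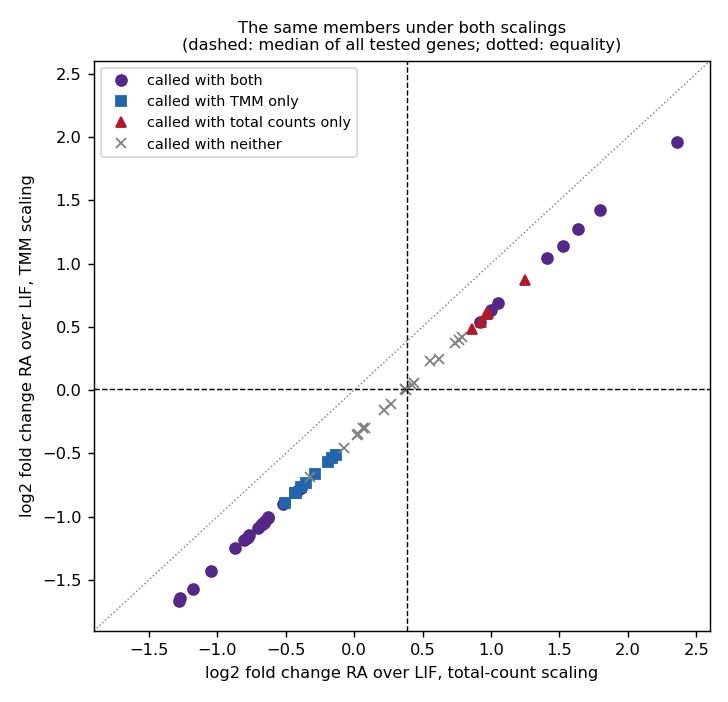
Log2 fold change of RA over LIF for the 62 tested members with TMM scaling (vertical axis) against total-count scaling (horizontal axis). Dashed lines mark the median of all tested genes on each scale (0.01 and 0.39), the dotted line marks equal values, and symbols give the scaling under which a member was called. All members lie below the dotted line by about the same amount.

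Levels of related genes can be compared per length through the authors' FPKM. Eif4a1 was at 2.39, 1.33 and 1.38 times Eif4a2 with RA in L122A, WT and EGFP, against 1.51, 2.36 and 3.09 times without LIF and 1.86, 1.59 and 3.57 times with LIF. The ratio with RA was the lowest of the 3 cultures in WT and EGFP and the highest in L122A. Eif5a was at 42.6, 27.9 and 32.2 times Eif5a2 with RA and at 87.2 to 106 times in the 6 other libraries. Eif4g1 was at 3.00, 3.24 and 4.32 times Eif4g3 with RA and at 5.05 to 10.8 times in the others. Eif2s3x was at 3.44, 2.24 and 2.48 times Eif2s3y with RA, against 3.43, 2.83 and 4.81 times without LIF and 4.72, 3.86 and 4.54 times with LIF. These ratios lie within a library and do not depend on its scaling.

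**Figure D5:**
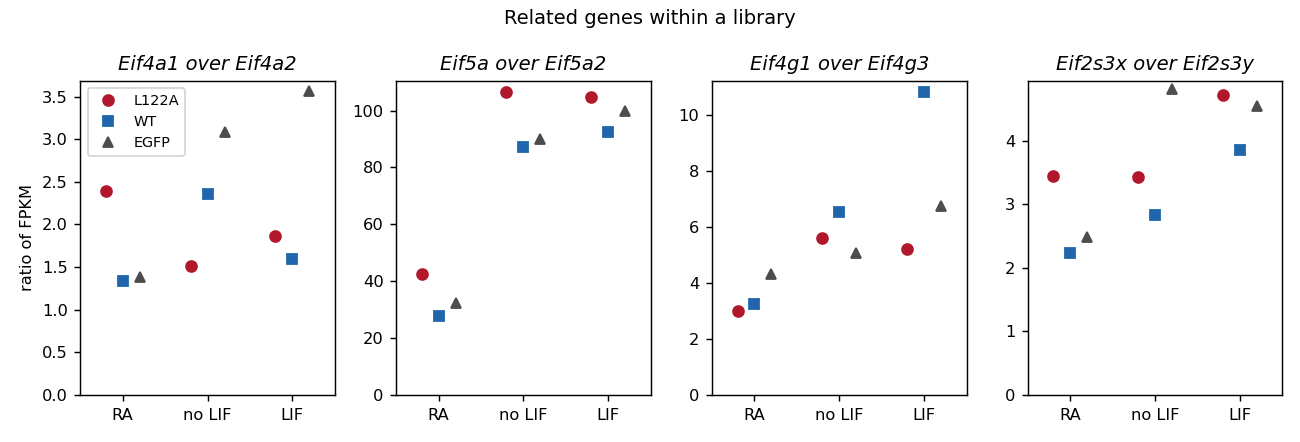
Ratio of FPKM between 2 related genes within each of the 9 libraries, with cultures from left to right as RA, no LIF and LIF and 1 symbol per transfectant. Eif5a over Eif5a2 and Eif4g1 over Eif4g3 are lower in all RA libraries than in all others, and Eif4a1 over Eif4a2 with RA is highest in L122A.

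The promoters of the members were searched for CACGTG, the E-box read by Myc and related factors, because translation factors are known Myc targets. The windows ran from 250 bases before to 50 bases after each RefSeq start on GRCm38.p6, and the motif reads the same on both strands. It was present in 4 of the 22 matched members that fell with RA against LIF (18.2%), in 1 of 7 that rose and in 7 of 21 that were not called (33.3%), against 8.09% of all 27025 genes. The occurrences in Eif5a, Eif4a1, Eif3k and Eif4e, which fell, and in Eif4h, which rose, are shown with 12 bases on each side and the motif in capitals. The motif occurs at 2 places in the windows of Eif5a, which has several annotated starts, and of Eif4e. The sequences lie, in the order given, at chr11:69921443-69921472 (minus strand), chr11:69920791-69920820 (minus), chr11:69672595-69672624 (minus), chr7:28981915-28981944 (minus), chr3:138527028-138527057 (plus), chr3:138527192-138527221 (plus) and chr5:134639488-134639517 (minus).
Eif5a: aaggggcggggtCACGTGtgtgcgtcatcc
Eif5a, second place: gcgctgcgcggcCACGTGaggtgggggagg
Eif4a1: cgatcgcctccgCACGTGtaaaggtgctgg
Eif3k: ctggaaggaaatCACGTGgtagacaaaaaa
Eif4e: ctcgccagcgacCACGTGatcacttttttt
Eif4e, second place: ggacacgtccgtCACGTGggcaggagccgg
Eif4h: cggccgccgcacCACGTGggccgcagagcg

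The share was not higher among members that fell than among those not called, which were Eef2, Eef2k, Eif1b, Eif3a, Eif3f, Eif4g1 and Eif5a2. A match is a description of the letters and not of binding. Of the Myc family and its partners, Mycn had 30.8, 29.4 and 50.0 CPM with RA in L122A, WT and EGFP, against 74.9, 61.1 and 266 CPM with LIF, and fell by 1.67 ± 0.46 on the log2 scale (edgeR adjusted p = 0.019). Myc had 43.5, 42.9 and 64.9 CPM with RA and 22.3, 28.1 and 45.2 CPM with LIF, and rose by 0.69 ± 0.18 (adjusted p = 0.012). Mxd1, a competitor of Myc, rose by 1.58 ± 0.37 (adjusted p = 0.00841). Of the 7 tested genes of this list 2 rose and 1 fell, and on total counts 3 rose and none fell. Among all tested genes 24.4% rose and 23.8% fell on the TMM scale, so these few calls are not a result about the list.

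Other parts of the translation machinery were read from lists written from general knowledge. Their counts stand beside 23.8% of all tested genes that fell and 24.4% that rose with RA against LIF. Of 80 ribosomal protein genes 79 fell with RA against LIF and none rose, with a median log2 of -1.34, and 73 fell on total counts (median -0.95). A list of cytosolic aminoacyl-tRNA synthetases, which charge tRNAs, held 23 genes, among them the partner proteins Aimp1 and Aimp2, which are not synthetases. Of these genes 13 fell, Aimp1 and Aimp2 included, and none rose (median -0.74). The largest falls in this list were those of Cars and Mars, by 1.46 and 1.45. Gars, the glycyl-tRNA synthetase, had 139, 108 and 111 CPM with RA, against 291, 258 and 271 CPM with LIF, and fell by 1.20 ± 0.18 (edgeR adjusted p = 0.00133). Of 9 termination and recycling factors 6 fell (median -0.67), most of all Mcts2, by 1.34, and among them Etf1, the release factor, by 0.77. On total counts 6 genes of the synthetase list fell and none rose, and of the termination factors 1 fell and 2 rose. Of 9 mitochondrial translation factors 6 fell, and of 5 poly(A)-binding proteins and regulators 2 fell and 1 rose. Of 13 genes listed as other initiation cofactors 3 fell and 3 rose. These 3 falls include Rrn3, a factor of transcription by RNA polymerase I and not of translation. On total counts 3, 0 and 0 genes of these 3 lists fell and 0, 1 and 4 rose. The other initiation cofactors lay near the all-gene shares in both directions, so their counts are not a result about that list. Shares of all tested genes by direction on total counts are not given.

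Of the regulators of translation, 16 genes of mTOR and MAPK control were listed, of which 6 rose and none fell (median 0.33, on total counts 0.70). Among all tested genes 24.4% rose and 23.8% fell. Akt1, a kinase upstream of mTOR, had 28.2, 33.0 and 63.3 CPM with RA in L122A, WT and EGFP, against 13.4, 9.35 and 15.3 CPM with LIF, and rose by 1.64 ± 0.24 (edgeR adjusted p = 0.00127). Mknk2, which phosphorylates eIF4E, rose by 1.52 ± 0.24 (adjusted p = 0.00158). The other rises of the mTOR and MAPK list were those of Tsc1, Tsc2, Rps6kb1 and Rictor, by 0.85, 0.76, 0.67 and 0.63. Pdcd4, an inhibitor of eIF4A, belongs to the list of other initiation cofactors. It had 47.8, 56.4 and 34.9 CPM with RA and 21.5, 17.1 and 21.4 CPM with LIF, and rose by 1.17 ± 0.25 (edgeR adjusted p = 0.0063).

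The transcripts of the integrated stress response, which eIF2 alpha phosphorylation induces through Atf4, fell or rose by gene. Of 13 tested, 5 fell and 2 rose, with a median of -0.59, where 23.8% and 24.4% of all tested genes fell and rose. On total counts 5 fell and 3 rose, and the all-gene shares by direction on that scale are not given. Atf4 itself had 116, 118 and 110 CPM with RA in L122A, WT and EGFP, against 294, 273 and 193 CPM with LIF, and fell by 1.13 ± 0.18 (edgeR adjusted p = 0.00176). Trib3, a target of Atf4, had 1.37, 1.22 and 1.09 CPM with RA and 13.9, 17.6 and 10.5 CPM with LIF, and fell by 3.49 ± 0.28 (adjusted p = 0.000229). Asns and Psat1, amino acid enzymes and Atf4 targets, and Chac1 fell by 1.77, 2.63 and 2.73. Ppp1r15a, which directs the removal of the phosphate from eIF2 alpha, and Sesn2 rose by 1.02 and 0.78. Dnajc3, an inhibitor of eIF2 kinases, had 66.1, 83.0 and 120 CPM with RA and 30.0, 23.9 and 37.4 CPM with LIF, and rose by 1.55 ± 0.20 (adjusted p = 0.000759).

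The members that rose were longer than those that fell. The median feature length was 5532 bases in the 8 that rose with RA against LIF, 2508 bases in the 31 that fell and 4166 bases in the 23 that were not called. The same held over all tested genes, with 4614, 2021 and 3113 bases. Across members the log2 fold change and length had a Spearman rho of 0.384 (n = 62), and across all tested genes 0.394 (n = 13996). Genes are not independent replicates and share the libraries, so no p is given, and the part of length in the changes was not tested.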

How the data were processed

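RNA of 9 cultures of RF8 ES cells was isolated with an RNeasy kit and sequenced on Illumina libraries, per the labels. The submitters' processing notes name TopHat2 2.0.11 and mm9. The counting program, its use of strand and its treatment of shared reads are not stated. The authors deposited raw read counts per gene, not normalized, per the file headers. The authors also deposited FPKM, which in every library matched the count over length and total count within 1% for 100% of genes above 5 FPKM. The columns of the LIF cultures carry a word found in no label and were assigned by elimination, and L122 was read as L122A. Starts in the table are counted from 0 and are printed 1 higher.

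A gene was tested when 3 or more of the 9 libraries reached 1 CPM. The test was edgeR 4.0.16, quasi-likelihood and robust, additive in transfectant and culture (TMM factors 0.810 to 1.255, a biological coefficient of variation of 0.325, and 4 residual degrees of freedom). The SE was taken as the size of the log2 fold change divided by the root of F. RA responses were compared over class means with 3 residual degrees of freedom. Promoters are RefSeq's, matched by symbol, alternate name or synonym.

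Alternatives were RLE and total-count scaling, scaling without the 190 ribosomal RNA and 38 mitochondrial genes, no filter, DESeq2 1.42.0, limma 3.58.1 on log2(FPKM + 1), whose fold changes understate those of low genes, fits to the levels compared alone or without the second factor, each library left out, and for single libraries a minimum of 1 CPM, in R 4.3.3 and Python 3.11.15.

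The rule for values in each library took members called outside the comparisons with RA and sets of related genes. It also took the 2 that fell and the 2 that rose most in each role at a mean of 5 CPM or more (otherwise the smallest p). It was not followed throughout. Eef1d, Eif2b3, Eif4e2, Eif2ak1, Eif2ak4 and Eif4g1 have fold changes alone, and Eif4e1b, Eef1a2 and Eef2k have no such values or a range. Eif3a, Eif3d and Eif1b have them although the rule did not pick them. From other lists selected genes are given, which in some lists but not in all are those called with the largest fall and rise. Some were named after their values were seen. The members and lists were chosen with earlier results of these data known.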

Additional observations from a re-analysis of the deposited data

How the results depend on the processing

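In both comparisons with RA the member median stayed below the all-gene median under all alternatives run. The alternatives that change the scaling alone move all genes of a library together, so they could not alter this. The distance shrank by more than the libraries' spread with limma on log2 FPKM, to -0.3936 against LIF (main value -0.5342) and -0.3257 against no LIF (-0.4769). Against LIF the count of members called was 35 to 41 with the other tools, scalings and filters, and 25 to 41 with each library left out, the lowest without WT with RA. The calls over all tested genes also differ between these fits, so this range is not particular to the members. With each library left out, the distance of medians ranged from -0.4928 to -0.3944 for RA against no LIF, from -0.0242 to 0.0341 for no LIF against LIF and from -0.0544 to 0.0412 for L122A against WT, and the members called for L122A against EGFP ranged from 0 to 1. Members at 2-fold or more in EGFP, RA over LIF, numbered 9 on total counts, against 14. The cause of these shifts was not tested. No called value changed sign. The difference of RA responses could not be fitted without an EGFP library with LIF or RA. Cultures were compared within transfectants in the main design, and without the transfectant term 38 members were called for RA against LIF (39 with it) and 33 for RA against no LIF (36 with it). With 1 library per combination, members of low count such as Eef2k and Eif4e3 are the least certain.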
